A study of Homo sapiens with 14 samples.

Results

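Messenger RNA levels of 10 genes that control the passage from G1 into S phase were examined in prostate cancer cells treated with a Mediator kinase inhibitor. The genes were chosen by name and comprised the D-type cyclins CCND1 and CCND3, the cyclin-dependent kinases CDK4, CDK6 and CDK2, cyclin E1 (CCNE1), the inhibitors CDKN1B and CDKN2A, the retinoblastoma gene RB1 and the transcription factor E2F1. All 10 were among the 62703 genes counted, and 8 were among the 7086 that passed a filter on low counts. CDK6 and CCNE1 did not pass it. None of the 8 tested genes changed beyond the test's threshold with the inhibitor. Without it, 4 of them (CCND1, CDK4, CDK2 and CDKN1B) were lower in LNCaP than in 22Rv1 cells. That share was near the background, since 49.0% of all tested genes differed between these lines. PC3 cells, with 1 library per arm, stood apart most by the level of CDK6 among the 10 genes. Their CDKN2A level was also the highest and their CDKN1B level the lowest of the lines.

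The cells were established human prostate cancer lines. PC3 grows independently of androgen, whereas LNCaP and 22Rv1 both respond to it. The antiandrogen enzalutamide restrains LNCaP, and 22Rv1 resists it. Each line received either 1.5 µM SEL120-34A, which inhibits CDK8 and CDK19, or the solvent DMSO, for 3 days. No other agent and no genetic change was named in the labels of any group. Each arm of LNCaP and 22Rv1 comprised 3 libraries and each arm of PC3 only 1, all sequenced from the 3′ ends of transcripts after early barcoding (BRB-seq). The comparison addresses whether blocking the Mediator kinases acts on enzalutamide-sensitive and enzalutamide-resistant cells. The study's methods describe its experiments in general as done in biological replicates, but no label states that libraries of a group came from separate cultures. If they did not, p-values measure only the spread between these libraries, which may be technical.

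D-type cyclins bind CDK4 or CDK6 in response to growth signals, and these kinases begin the phosphorylation of the RB protein. RB in its less phosphorylated state holds E2F factors inactive. Once cyclin E and CDK2 complete the phosphorylation, E2F factors are released and turn on genes for DNA replication, E2F1 itself included. The p27 protein, from CDKN1B, restrains cyclin E with CDK2, and the p16 protein, from CDKN2A, binds CDK4 and CDK6. In the prostate, androgen signalling is known to feed into this switch. CDK8 and CDK19, which SEL120-34A targets, are subunits of the Mediator complex and are not part of this G1 switch.

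E2F factors recognise short promoter elements, so the promoters were searched for TTTCCCGC, TTTCGCGC, TTTGCCGC and TTTGGCGC on either strand, in RefSeq windows of GRCh38.p14 from 250 bases before to 50 bases after a gene's start. Of 27305 promoters, 908 (3.33%) held at least 1 of these elements. CCND1 and CDK2 had no entry. Of the other 8 genes, 1 held an element, namely E2F1, with matches beginning 33 and 20 bases before the start. The window listed for RB1 lies inside the gene, at chr13:48476200-48476499. Those of CCND3 (chr6:42048639-42048938), CDK4 (chr12:57752261-57752560) and CDKN1B (chr12:12717118-12717417) also lie wholly inside the gene's bounds, not at its outermost start. Of 28 promoters of E2F target genes (described below), 13 (46.4%) held an element. A match is a run of letters and not a shown binding site. The promoter of E2F1 (chr20:33686336-33686635, minus strand) is shown as the only one among these genes with a match. That of MCM7 (chr7:100101348-100101647, minus strand) is shown because it alone had a match among the promoters of the E2F targets lowered by the inhibitor, of which MCM4 had no entry. Both run 5′ to 3′, with capitals marking the matches.
E2F1: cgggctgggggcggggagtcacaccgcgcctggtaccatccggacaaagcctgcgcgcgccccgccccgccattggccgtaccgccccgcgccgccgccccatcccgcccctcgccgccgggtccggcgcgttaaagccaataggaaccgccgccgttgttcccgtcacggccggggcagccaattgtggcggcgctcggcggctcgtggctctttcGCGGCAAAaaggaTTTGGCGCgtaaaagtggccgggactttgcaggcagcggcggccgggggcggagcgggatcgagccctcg
MCM7: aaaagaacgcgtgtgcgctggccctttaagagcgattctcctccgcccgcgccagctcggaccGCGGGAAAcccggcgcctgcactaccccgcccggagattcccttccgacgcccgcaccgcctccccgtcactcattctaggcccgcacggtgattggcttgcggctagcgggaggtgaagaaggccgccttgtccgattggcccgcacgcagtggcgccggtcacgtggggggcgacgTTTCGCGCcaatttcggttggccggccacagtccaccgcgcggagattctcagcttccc

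Levels are given in CPM, the counts divided by library size and scaled to a common total, adjusted between libraries with TMM factors, and group values are means ± SD. Total counts ranged from 246063 to 909176 per library. In 22Rv1 every treated library (246063 to 368778) was shallower than every control (476455 to 777207). Spread between replicates exceeded counting error (chi-square over degrees of freedom 1.88 to 2.41). The summed level of 12 luminal prostate markers was 4420 to 5000 CPM in LNCaP controls, 1630 to 1740 in 22Rv1 controls and 1290 in the PC3 control. That of 10 mesenchymal and basal markers typical of PC3 was 39.3 to 79.7, 120 to 138 and 5360 CPM in the same order. With the inhibitor the luminal sum was 3790 to 4080 CPM in LNCaP, below the controls, and 1810 to 2080 in 22Rv1, above them. The sums do not stand for the single markers. In PC3 only 5 of the 12 luminal markers had at least 20 counts over both libraries. With the inhibitor, 5 of the 12 had a log2 change below 0 in LNCaP (median 0.306), and 6 of the 12 did in 22Rv1 (median 0.0275). Leukocyte markers summed to at most 5.26 CPM and endothelial markers to at most 12.3 CPM in any library. The sum of 6 fibroblast markers, of which 4 were at 0 in each LNCaP arm, was 12.7 to 18.3 CPM in LNCaP controls and 23.4 to 35.9 with the inhibitor, without overlap. It was at most 8.58 in 22Rv1, 98.0 in the PC3 control and 87.7 in treated PC3. The part of these marker sums in the results was not tested. Whether a higher level reflects more RNA per cell or more expressing cells cannot be told apart in such bulk samples.

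**Figure D1:**
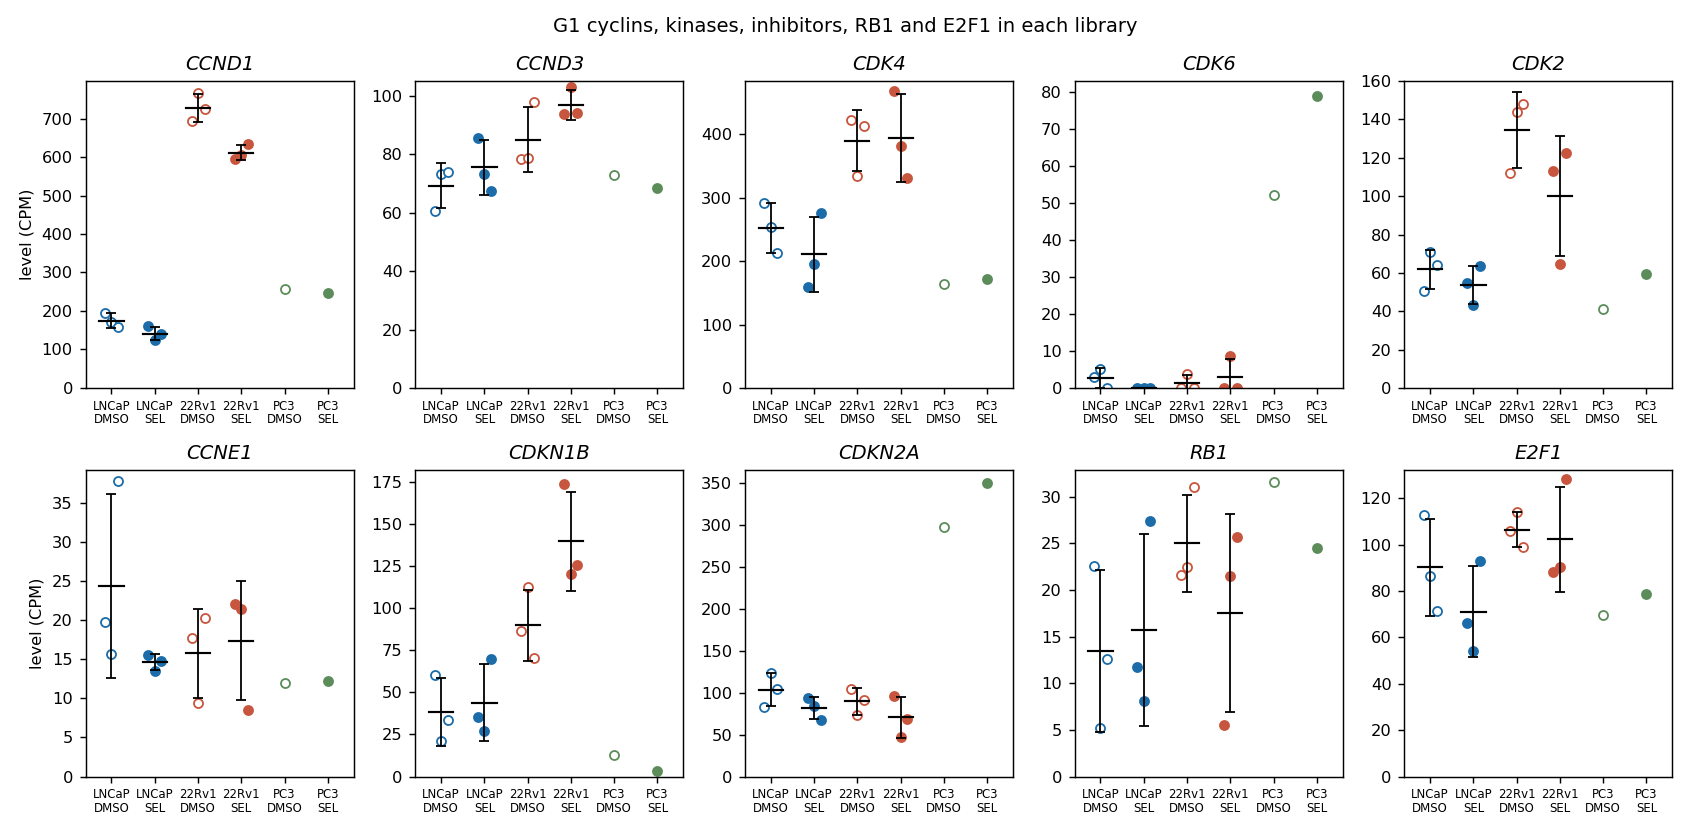
Level (CPM) of the 10 genes in each of the 14 libraries. Open points are DMSO and filled points SEL120-34A (SEL), bars are the mean ± SD of 3 libraries, and PC3 has 1 library per arm. CCND1 in the 22Rv1 controls lies at 693 to 766 CPM, above every LNCaP and PC3 library, and CDK6 exceeds 10 CPM in PC3 only.

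Without inhibitor, LNCaP and 22Rv1 differed most, among the 8 tested genes, in CCND1 (ENSG00000110092.4, GRCh38 chr11:69641156-69654474), which encodes cyclin D1. Its level in the DMSO libraries was 195.8, 170.2 and 158 CPM in LNCaP and 693, 765.5 and 725.1 CPM in 22Rv1, with 256.9 CPM in PC3. The LNCaP and 22Rv1 libraries did not overlap. LNCaP was lower by a log2 difference of -2.05 ± 0.13 (SE, 95% interval -2.32 to -1.78, edgeR adjusted p = 1.66e-16). PC3 lay between them, at 1.47 times the LNCaP level (95% counting interval 1.23 to 1.74) and 0.353 times the 22Rv1 level (0.306 to 0.406). The PC3 intervals throughout cover counting error only, since that line had no replicates.

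CCND3 (chr6:41934934-42050357), the gene of cyclin D3, was more even across the lines. The control libraries held 60.57, 73.3 and 74.1 CPM in LNCaP, 78.53, 78.61 and 97.8 CPM in 22Rv1, and 72.95 CPM in PC3. The LNCaP to 22Rv1 difference of -0.32 ± 0.20 did not pass (edgeR adjusted p = 0.178), although it did on library totals, without TMM (-0.53, adjusted p = 0.0214). The median over all genes shifted by -0.212 under that scaling.

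Among the kinases, CDK4 and CDK2 were higher in 22Rv1, and CDK6 was prominent in PC3. CDK4 (chr12:57747727-57756013), a partner of D cyclins, stood at 291.6, 253.9 and 212.5 CPM in LNCaP controls and at 422.1, 335 and 413.9 CPM in 22Rv1 controls. The groups did not overlap, and LNCaP was lower by -0.63 ± 0.15 on the log2 scale (edgeR adjusted p = 0.000854). PC3 had 163.3 CPM, or 0.647 (0.535 to 0.78) of the LNCaP level and 0.415 (0.346 to 0.495) of the 22Rv1 level.

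CDK2 (chr12:55966781-55972789), which acts with cyclin E, had 50.71, 70.69 and 64.31 CPM in LNCaP and 111.9, 144.1 and 147.9 CPM in 22Rv1 controls, again with no overlap. The log2 difference was -1.15 ± 0.20 (edgeR adjusted p = 7.81e-06). In PC3 the level was 41.37 CPM, 0.302 (0.209 to 0.425) of that in 22Rv1, and the interval against LNCaP (0.461 to 1.00) reached equality.

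CDK6 (ENSG00000105810.10, chr7:92604921-92836573), the other partner of D cyclins, was close to absent from LNCaP and 22Rv1. It had 2, 2 and 0 counts in the LNCaP controls and 0, 2 and 0 in the 22Rv1 controls, against 48 counts (52.26 CPM) in the PC3 control. PC3 was thus 23.6 times LNCaP (95% counting interval 8.64 to 90.2) and 49.2 times 22Rv1 (12.9 to 418), with the controls of each line pooled. All 3 treated LNCaP libraries had 0 counts, and a floor of 3 counts corresponds to 6.34 to 11.7 CPM in them.

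CCNE1 (chr19:29811991-29824312), the gene of cyclin E1, was scarce in all lines, with 5 to 27 counts in a control library. Control levels were 19.72, 15.71 and 37.75 CPM in LNCaP, 17.67, 9.359 and 20.28 CPM in 22Rv1, and 11.98 CPM in PC3. The LNCaP and 22Rv1 ranges overlapped. The PC3 level was 0.461 (0.215 to 0.901) of that in LNCaP and 0.727 (0.33 to 1.49) of that in 22Rv1.

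The 2 inhibitor genes were ordered differently across the lines. CDKN1B (ENSG00000111276.12, chr12:12685498-12722369) was highest in 22Rv1, with 86.38, 112.3 and 70.37 CPM in the controls, against 60.57, 20.94 and 33.56 CPM in LNCaP. LNCaP was lower by -1.10 ± 0.27 (log2, edgeR adjusted p = 0.000821), with no overlap. PC3 was lower still, at 13.06 CPM from 12 counts, 0.315 (0.156 to 0.583) of LNCaP and 0.151 (0.0764 to 0.271) of 22Rv1.

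CDKN2A (chr9:21967752-21995301) showed its highest level in PC3, with 297.2 CPM. LNCaP controls had 83.11, 123 and 104.9 CPM and 22Rv1 controls 104.1, 73 and 91.84 CPM, and these overlapped (log2 difference 0.18 ± 0.20, edgeR adjusted p = 0.478, or -0.031 on library totals). PC3 exceeded LNCaP 2.97-fold (2.45 to 3.6) and 22Rv1 3.31-fold (2.72 to 4.03). The locus also encodes the p14ARF protein from a different first exon. Tags from the shared 3′ end do not separate the transcripts, so the value is their sum.

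RB1 (chr13:48303744-48599436) was counted sparsely, with 2 to 26 counts per control library in LNCaP and 22Rv1. Control levels were 22.54, 5.236 and 12.58 CPM in LNCaP and 21.6, 22.46 and 31.01 CPM in 22Rv1, which overlapped (-0.79 ± 0.42 log2, edgeR adjusted p = 0.114). The difference passed on library totals (adjusted p = 0.0493) and without LNCaP DMSO replicate 1, the highest LNCaP control (-1.36, adjusted p = 0.0369). PC3 had 31.57 CPM, 2.11 (1.21 to 3.71) times LNCaP and 1.21 (0.739 to 1.96) times 22Rv1.

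E2F1 (chr20:33675477-33686385) differed less. Control libraries held 112.7, 86.4 and 71.31 CPM in LNCaP and 106, 114.2 and 98.99 CPM in 22Rv1 (-0.22 ± 0.20 log2, edgeR adjusted p = 0.367), with 69.68 CPM in PC3. PC3 was at 0.768 (0.566 to 1.03) of the LNCaP level and 0.662 (0.492 to 0.882) of the 22Rv1 level.

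In all, 4 of the 8 tested genes differed between LNCaP and 22Rv1 controls, where 49.0% of all tested genes did, so the share of these genes was near the background. The 4 calls were kept in each of the 19 alternative analyses. The direction was the same for the 4, lower in LNCaP. Several of the genes overlap a neighbour on the opposite strand, and whether counting used strand is not given in the sources used here. Over all libraries the counts were 127 for LTO1 against 2795 for CCND1, 232 for MARCHF9 and 75 for TSPAN31 against 2064 for CDK4, and 54 for CDKN2B-AS1 against 980 for CDKN2A. Relative to the gene's own counts the neighbours were largest beside RB1, where LPAR6 had 30, PCNPP5 26 and RCBTB2 17 counts against 154. Exons of these RB1 neighbours and of MARCHF9 do not overlap exons of the gene, whereas those of LTO1, TSPAN31 and CDKN2B-AS1 do.

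**Figure D2:**
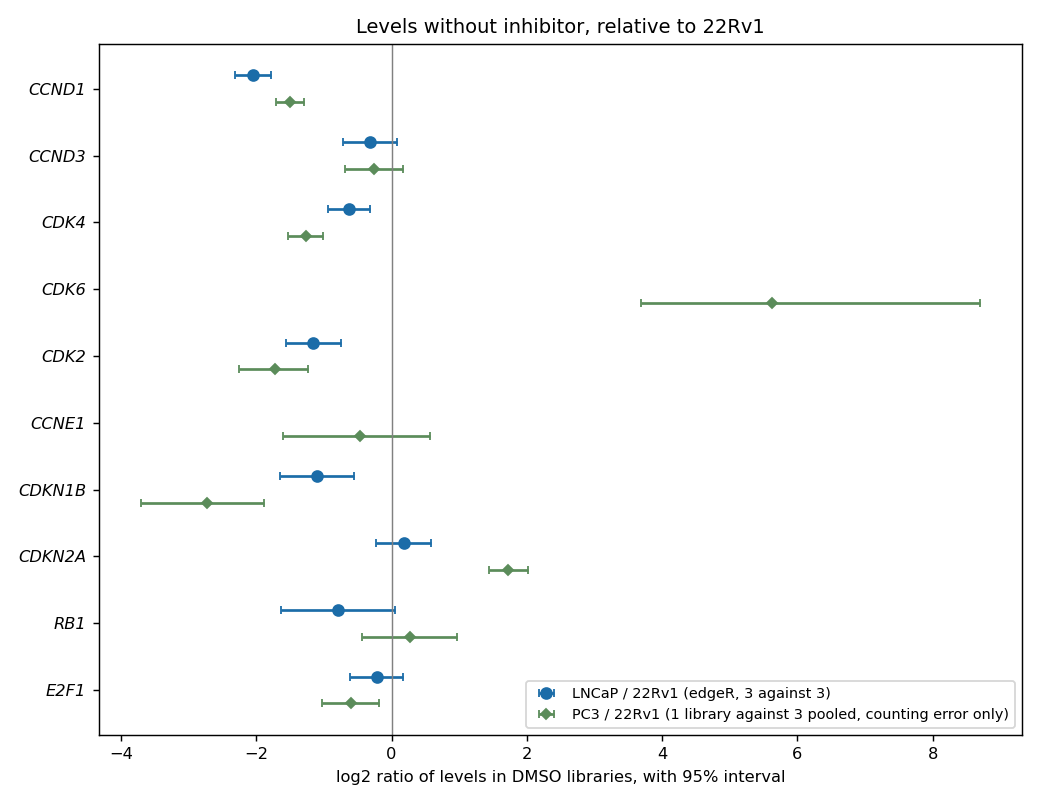
Log2 ratio of the level in DMSO libraries relative to 22Rv1, with 95% intervals. Circles are LNCaP (edgeR, 3 libraries against 3) and diamonds PC3 (1 library against 3 pooled, counting error only), and no LNCaP value is drawn for CDK6 and CCNE1, which were not tested. CCND1, CDK4, CDK2 and CDKN1B lie left of 0 in both lines, and CDK6 and CDKN2A lie right of 0 in PC3.

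With SEL120-34A, none of the 8 tested genes passed the threshold of an adjusted p of 0.05 in LNCaP, where 2.77% of all genes passed, or in 22Rv1, where 5.70% passed. None passed for the average of the lines (6.01% of all genes) or for the difference between them (0.734%). At an unadjusted p under 0.05 the edgeR counts were 0 in LNCaP, 1 in 22Rv1 (CDKN1B), 2 for the average (CCND1 and CDKN1B) and 0 for the difference. Of all tested genes 13.5%, 19.1%, 19.9% and 11.4% had such a p in the same order, so the counts of 1 and 2 of 8 were near the background. DESeq2 and limma-trend likewise called 0 of these genes in these comparisons. Complete separation of the treated from the control libraries was seen for 0 of the 8 genes in LNCaP (19.4% of all genes) and for 2 of the 8, or 25%, in 22Rv1 (23.0% of all genes), close to the background share.

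Cyclin D1 was the gene with the smallest p-value over both lines. In LNCaP, CCND1 had 159.9, 124.7 and 139.4 CPM with the inhibitor, against 195.8, 170.2 and 158 CPM in DMSO, and 1 treated library lay above the lowest control. The group means were 141 ± 17.7 and 175 ± 19.3 CPM, with a log2 fold change of -0.29 ± 0.16 (95% interval -0.62 to 0.04, edgeR adjusted p = 0.446). In 22Rv1 the treated libraries had 595.3, 605.2 and 633.2 CPM, all below the 3 controls, and the mean was 611 ± 19.7 against 728 ± 36.3 CPM. The change there was -0.24 ± 0.12 (-0.49 to 0.01, edgeR adjusted p = 0.29).

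Averaged over both lines CCND1 had a log2 fold change of -0.27 ± 0.10, with an interval of -0.47 to -0.06 and an unadjusted p of 0.013 that did not pass adjustment (edgeR adjusted p = 0.124). On library totals without TMM it passed in 22Rv1 (-0.39, adjusted p = 0.0488) and for the average (-0.39, adjusted p = 0.0126). Under it the median over all genes shifted by -0.143 in 22Rv1 and -0.117 for the average. In LNCaP the estimate was 0.050 once all libraries were thinned to the smallest total. The changes in the lines differed by -0.06 ± 0.20 (edgeR adjusted p = 0.951), with an interval of -0.47 to 0.36.

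The estimates for CCND3 were close to 0 on the same scale. It had 85.77, 73.19 and 67.58 CPM in treated LNCaP and 93.71, 103 and 94.13 CPM in treated 22Rv1 libraries, overlapping the controls in each line. The changes were 0.14 ± 0.22 (-0.31 to 0.58, edgeR adjusted p = 0.859) and 0.17 ± 0.21 (-0.25 to 0.59, adjusted p = 0.722).

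CDK4, the kinase partner of both cyclins, had overlapping arms in both lines. Treated libraries held 159.9, 195.2 and 276.7 CPM in LNCaP (change -0.19 ± 0.17, -0.54 to 0.16, edgeR adjusted p = 0.71). In 22Rv1 they held 468.5, 382 and 330.9 CPM (0.03 ± 0.16, -0.29 to 0.34, adjusted p = 0.953). The sign of the 22Rv1 estimate turned in 6 of 20 alternatives, so it carries no direction.

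CDK2 had 54.58, 43.37 and 63.36 CPM in treated LNCaP libraries, overlapping the controls (-0.13 ± 0.26, -0.65 to 0.39, edgeR adjusted p = 0.894). The lowest treated library lay below the lowest control, at 50.71 CPM. In 22Rv1 the treated libraries had 113, 64.38 and 122.6 CPM, of which 1 was far below the others, against a control mean of 135 ± 19.8 CPM. The change of -0.38 ± 0.21 (-0.80 to 0.04) did not pass (edgeR adjusted p = 0.326).

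CDK6 stayed at 0 to 2 counts in the treated LNCaP and 22Rv1 libraries, too few for a test. For CCNE1, treated LNCaP libraries had 15.6, 13.55 and 14.78 CPM, all below the 3 controls, from 4 to 7 counts against 6 to 27. In a fit without the low-count filter the change was -0.86 ± 0.43 with an unadjusted p of 0.0491 and an edgeR adjusted p of 0.75 over 21395 genes. In 22Rv1 the treated level of 17.4 ± 7.63 CPM overlapped the control level of 15.8 ± 5.70 CPM.

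The p27 gene CDKN1B had the largest estimate in 22Rv1. Its treated libraries held 173.6, 120.2 and 125.5 CPM, from 63, 28 and 44 counts, and all lay above the controls, whose highest was 112.3 CPM. The mean was 140 ± 29.5 against 89.7 ± 21.2 CPM, a log2 fold change of 0.70 ± 0.24 with an interval of 0.20 to 1.19. The unadjusted p was 0.00688, and the edgeR adjusted p of 0.0838 did not pass. Over 20 alternatives the adjusted p ranged from 0.0294 to 0.436, and it passed without 22Rv1 DMSO replicate 2, the highest control (0.87, adjusted p = 0.048). With all libraries at equal depth the estimate was 0.46 (adjusted p = 0.347), and the treated libraries of this line were the shallower ones.

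In LNCaP, CDKN1B varied widely within each arm. The treated libraries had 35.09, 27.11 and 69.69 CPM and the controls 60.57, 20.94 and 33.56 CPM, overlapping throughout (0.22 ± 0.33, -0.45 to 0.89, edgeR adjusted p = 0.848). The estimate moved from -0.38 without SEL120-34A replicate 3 to 0.72 without DMSO replicate 1, the highest library of each arm. The average of the lines was 0.46 ± 0.21 (adjusted p = 0.202), and it passed without LNCaP DMSO replicate 1 (0.70, adjusted p = 0.0491). The difference between the lines, -0.48 ± 0.41, did not pass (edgeR adjusted p = 0.711).

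CDKN2A had negative estimates of like size in both lines, none past the threshold. Treated libraries had 93.57, 84.03 and 67.58 CPM in LNCaP (-0.31 ± 0.23, -0.77 to 0.14, edgeR adjusted p = 0.588). In 22Rv1 they had 96.46, 47.21 and 68.45 CPM (-0.28 ± 0.24, -0.76 to 0.20, adjusted p = 0.583). The arms overlapped in both lines.

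RB1 was measured too sparsely to narrow its change. Treated libraries had 11.7, 8.132 and 27.46 CPM in LNCaP and 5.512, 21.46 and 25.67 CPM in 22Rv1, from 2 to 13 counts each. The intervals spanned -0.79 to 1.26 in LNCaP and -1.55 to 0.38 in 22Rv1 (edgeR adjusted p = 0.899 and 0.56), so a change of 2-fold (1 on the log2 scale) lay within both. E2F1, the factor that RB restrains, had 66.28, 54.21 and 92.93 CPM in treated LNCaP libraries (-0.28 ± 0.23, -0.74 to 0.18, edgeR adjusted p = 0.652). In 22Rv1 it had 88.19, 90.13 and 128.4 CPM (-0.02 ± 0.22, -0.46 to 0.41, adjusted p = 0.974). Both overlapped their controls.

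**Figure D3:**
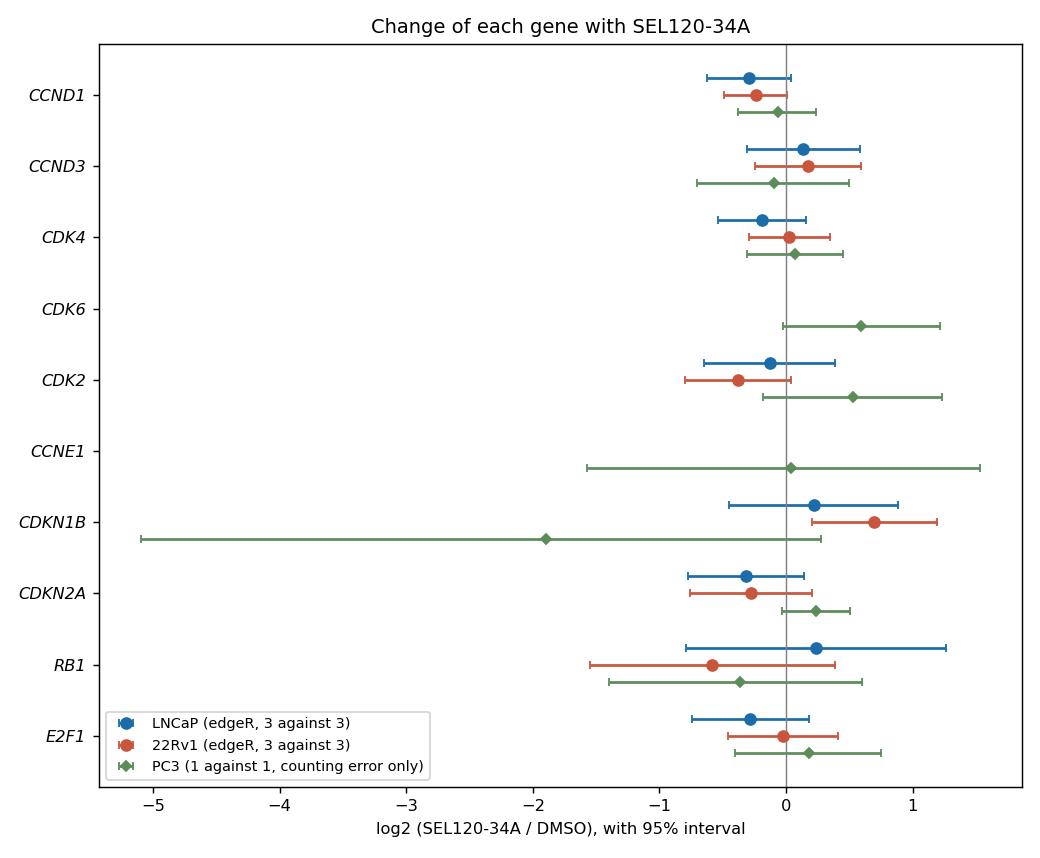
Log2 ratio of SEL120-34A to DMSO for the 10 genes with 95% intervals, as fitted by edgeR in LNCaP and 22Rv1 (circles) and from 1 library per arm in PC3 (diamonds, counting error only). All intervals include 0 except that of CDKN1B in 22Rv1 (0.20 to 1.19), whose adjusted p was 0.0838, and CDK6 and CCNE1 were not tested in LNCaP and 22Rv1.

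PC3 could be described only by the ratio of its libraries. Of the 8 genes with at least 20 counts over both libraries, 0 reached a 2-fold ratio, against 5.47% of 8205 genes. CCND1 went from 256.9 to 245.5 CPM, a ratio of 0.955 (95% counting interval 0.77 to 1.18), and CDK4 from 163.3 to 171.8 CPM (1.05, 0.807 to 1.37). CDK6, measurable in this line alone, had 48 and 45 counts, or 52.26 and 78.91 CPM (1.51, 0.983 to 2.32). The ratios of CDK2 (1.44, 0.88 to 2.35), CDKN2A (1.18, 0.978 to 1.42), E2F1 (1.13, 0.756 to 1.68), CCND3 (0.938, 0.615 to 1.41) and RB1 (0.778, 0.38 to 1.52) all had intervals that include 1. Below 20 counts, CDKN1B had 12 and 2 counts (0.268, 0.0292 to 1.21) and CCNE1 11 and 7 (1.03, 0.337 to 2.9).

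Other genes of the pathway were followed in lists. Of 5 further cyclins and kinases of G1, 2 were tested and 0 passed with the inhibitor in either line. In the controls, where 49.0% of all tested genes differed, 1 was lower in LNCaP, CCNE2, the gene of cyclin E2 (-0.85 ± 0.23, edgeR adjusted p = 0.00203). Of 5 further CDK inhibitors, 3 were tested. CDKN1A, which encodes p21, rose in LNCaP from 118.5 ± 33.8 to 210.7 ± 34.4 CPM (0.85 ± 0.19, edgeR adjusted p = 0.00801) and for the average of the lines (0.77 ± 0.20, adjusted p = 0.0119). In 22Rv1 it had 26.55 ± 5.12 and 43.95 ± 14.7 CPM (0.68 ± 0.34, adjusted p = 0.265). Its LNCaP call was lost with limma-trend, without DMSO replicate 3 and without SEL120-34A replicate 2 (range of adjusted p over 20 alternatives 0.000457 to 0.236), and that for the average with limma-trend (0.0681) and without 22Rv1 SEL120-34A replicate 2 (0.0703) or 3 (0.0579). Without inhibitor CDKN1A was higher in LNCaP by 2.16 ± 0.25 (adjusted p = 1.72e-09), opposite to CDKN1B and to CDKN2D, the gene of p19INK4d (-1.32 ± 0.26, adjusted p = 5.53e-05).

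Of 17 factors listed with the RB family, the E2F family and the DREAM complex, 10 were tested. MYBL2, which encodes B-MYB, fell in LNCaP from 71.7 to 38.9 CPM (-0.97 ± 0.27, edgeR adjusted p = 0.0344), and 0 others passed with the inhibitor in either line. The call was lost in 7 of 20 alternatives (adjusted p 0.023 to 0.198), among them those without LNCaP DMSO replicate 1 or 3 or SEL120-34A replicate 2 or 3. In 22Rv1 the estimate was -0.15 ± 0.24 (adjusted p = 0.8). In the controls 5 of the 10 were lower in LNCaP and 0 were higher, near the background of 49.0% of all tested genes. The 4 smallest adjusted p-values were those of E2F2 (-2.15 ± 0.47, 0.000227), LIN9 (-1.46 ± 0.36, 0.000766), E2F4 (-0.76 ± 0.19, 0.001) and E2F5 (-0.94 ± 0.26, 0.00274, lost with limma-trend at 0.0532) by edgeR. E2F2 is an activating and E2F4 and E2F5 are repressive family members, and LIN9 is a core subunit of DREAM.

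Of 17 genes for the turnover or activation of G1 regulators, 12 were tested. CCNH, the gene of cyclin H in the kinase complex that activates CDK4 and CDK2, rose in 22Rv1 from 117 ± 28.1 to 302 ± 32.8 CPM (1.38 ± 0.17, edgeR adjusted p = 3.01e-07), a call kept in all 20 alternatives. In LNCaP it had 163 ± 7.34 and 224 ± 38.4 CPM (0.51 ± 0.17, adjusted p = 0.104). The difference between the lines, -0.87, did not pass (adjusted p = 0.0787), and the average rose by 0.94 ± 0.12 (adjusted p = 7.33e-07). SKP1, a subunit of the SCF ubiquitin ligases that degrade p27 and cyclin E, rose for the average alone (1.04 ± 0.32, edgeR adjusted p = 0.0427), a call lost in 15 of 18 alternatives, including the omission of any library but 22Rv1 DMSO replicate 1 (adjusted p up to 0.141). In the controls 5 of the 12 were lower in LNCaP and 1 was higher, near the background of 49.0% of all tested genes. Those with the smallest adjusted p were CKS1B (-1.64 ± 0.18, 9.21e-10), DDB1 (-1.21 ± 0.17, 1.45e-07), CDC25B (-1.09 ± 0.24, 0.000243) and CCNH (0.48 ± 0.17, 0.0176) by edgeR, the last lost without LNCaP DMSO replicate 3 (0.0585) or 22Rv1 DMSO replicate 2 (0.142). The CCNH difference was also lost on library totals (0.27, adjusted p = 0.179) and at equal depth (0.27, adjusted p = 0.366). CKS1B assists the recognition of p27 by its ligase, DDB1 is an adaptor of CUL4 ligases, and CDC25B is a phosphatase that activates CDKs.

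E2F target genes of the G1/S transition, which serve DNA replication and nucleotide synthesis, form the output of the switch. Of 32 listed, 28 were tested. In LNCaP 2 fell, 0 rose and 26 did not pass, where 2.77% of all tested genes passed in either direction. The estimate was below 0 for all 28, against 49.5% of all tested genes, with a median of -0.332 against 0.000759 over all genes. In 22Rv1 1 fell, where 5.70% of all tested genes passed in either direction. There 17 of 28 estimates were below 0 (49.6% of all genes), with a median of -0.0361. The LNCaP count below 0 ranged from 25 to 28 of 28 with single libraries left out, and 1 to 3 genes then fell. For the difference between the lines 0 of the 28 passed by edgeR, with 5 (17.9%, against 11.4% of all genes) at an unadjusted p under 0.05. With DESeq2 and limma-trend 0 were called more negative in LNCaP, and without LNCaP SEL120-34A replicate 3 edgeR called 1. The median difference was -0.333. The list overlaps S phase genes whose lower level in treated LNCaP was already known, so these counts are a description.

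RRM2, a subunit of ribonucleotide reductase, had the smallest adjusted p of the list in LNCaP. Its level was 360 ± 17.6 CPM in DMSO and 146 ± 82.4 CPM with the inhibitor, and the arms did not overlap (-1.19 ± 0.20, edgeR adjusted p = 0.000162, lost with limma-trend at 0.0632). In 22Rv1 it had 279.5 ± 59.0 and 190 ± 34.9 CPM (-0.53 ± 0.20, adjusted p = 0.126), and the average of the lines fell by 0.86 (adjusted p = 8.45e-05). RRM1, the other subunit, fell for the average (-0.39 ± 0.12, edgeR adjusted p = 0.0452), a call lost in 13 of 19 alternatives, 9 of them omissions of a single library (adjusted p 0.0555 to 0.136).

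TK1, thymidine kinase, fell in LNCaP from 307 ± 15.1 to 208 ± 10.4 CPM (-0.53 ± 0.15, edgeR adjusted p = 0.0335), a call lost in 8 of 20 alternatives (adjusted p 0.00856 to 0.508), including the omission of any LNCaP library. MCM4 and MCM7 encode subunits of the replicative helicase. MCM4 fell in 22Rv1 from 264 ± 51.2 to 130 ± 52.4 CPM (-0.95 ± 0.20, edgeR adjusted p = 0.00181) and for the average (-0.78 ± 0.15, adjusted p = 0.000821), both lost with limma-trend. In LNCaP it had an estimate of -0.61 ± 0.23 (adjusted p = 0.196). MCM7, whose promoter is printed above, fell for the average (-0.48 ± 0.12, edgeR adjusted p = 0.00834), which was lost with limma-trend and at equal depth. Its estimates were -0.64 (adjusted p = 0.0505) in LNCaP and -0.32 (adjusted p = 0.216) in 22Rv1.

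**Figure D4:**
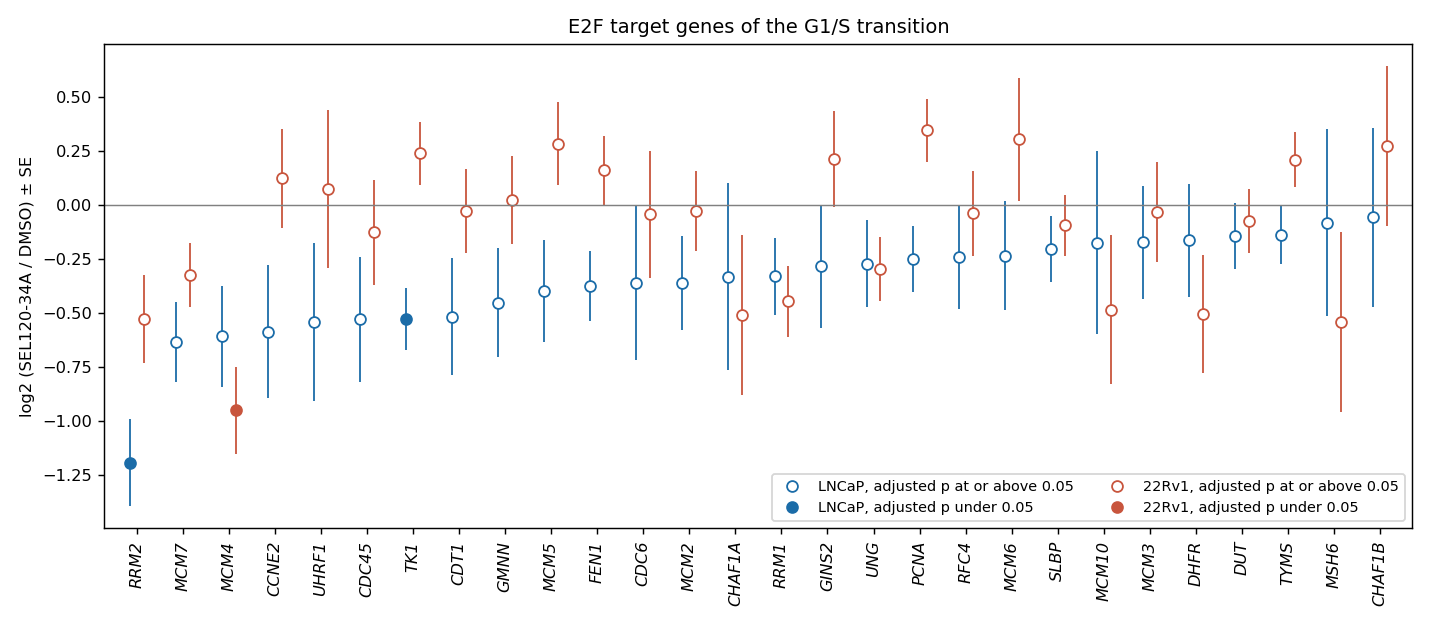
Log2 fold change (SEL120-34A over DMSO) ± SE of the 28 tested E2F target genes in LNCaP and 22Rv1 (3 libraries per arm), ordered by the LNCaP estimate. Filled points have an edgeR adjusted p under 0.05, namely RRM2 and TK1 in LNCaP and MCM4 in 22Rv1. All LNCaP points lie below 0, and 17 of the 22Rv1 points do.

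The E2F targets also differed between the lines without inhibitor. Of all tested genes 49.0% differed between these controls. Of the 28, 17 were lower in LNCaP than in 22Rv1, 2 were higher and 9 did not pass. Their median log2 difference was -0.609, against -0.0298 over all genes. The smallest adjusted p-values were those of UNG, a uracil-DNA glycosylase (-1.72 ± 0.16, 3.17e-12), MCM7 (-1.44 ± 0.15, 1.74e-10), the licensing factor CDT1 (-1.26 ± 0.20, 1.38e-06) and MCM4 (-1.08 ± 0.18, 4.53e-06) by edgeR. In PC3, 29 of the 32 had enough counts, and 0 reached a 2-fold ratio with the inhibitor, against 5.47% of 8205 genes. Of the 29, 8 (27.6%) had a ratio below 1, against 48.1% of all genes. The median log2 ratio was 0.177, against 0.0162 over all genes. In the other lists, 2 genes passed a 2-fold ratio in PC3, and they are named here after their values were seen. CCNA1, the gene of cyclin A1, had 60 and 90 counts (65.32 and 157.8 CPM), and CDKN2D had 51 and 14 counts (55.53 and 24.55 CPM). The other 3 genes of the G1 cyclin list with enough counts, 4 of the inhibitors, 11 RB, E2F and DREAM factors and 11 turnover or activation genes stayed within 2-fold.

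Across the 12 LNCaP and 22Rv1 libraries, taken as deviations from each line's mean, the genes whose log2 CPM was most like that of CCND1 were TCF3 (Pearson r = 0.894), ATF5 (0.885), TAOK3 (0.871), FKBP4 (0.866) and FUBP1 (0.86). These values describe libraries that share treatment arms and depth, and carry no p-value. Among the 8 tested G1 genes themselves, the correlations on the same basis ran from -0.623 for CCND3 with E2F1 to 0.595 for CCND1 with E2F1.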

How the data were processed

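Libraries were grouped by the cell line and treatment in their labels. The authors aligned and counted reads per gene with STARsolo (version not given in the sources used here) on GRCh38.p13 with GENCODE release 43 and deposited whole-number counts for 62703 genes, 39546 of them 0 in all 14 libraries. Since the sources do not say whether molecular identifiers were collapsed, intervals and floors (3 counts, 3.27 to 12.9 CPM) reflect counting error alone. A second deposited table held log2 CPM of 9638 genes, which edgeR's TMM with a prior count of 2 gave to within 4.97e-14, and which served only the limma-trend alternative.

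One edgeR 4.0.16 quasi-likelihood model (R 4.3.3) held the 12 LNCaP and 22Rv1 libraries in 4 groups, with TMM, filterByExpr (7086 genes), 8 residual degrees of freedom, a common biological coefficient of variation of 11.1% and Benjamini-Hochberg adjustment over all tested genes (threshold 0.05). PC3 ratios carry exact conditional 95% intervals. Coordinates are from GENCODE release 44. The genes and lists were chosen with earlier results of these data known. Named beside the 10 genes were list genes past the threshold with the inhibitor (at most 8 per list), at most 4 per list for the controls, and the 5 genes most like the one with the smallest adjusted p for the average.

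Alternatives comprised DESeq2 size factors, library totals, no filter, a block for the replicate number, DESeq2 1.42.0 (Wald test), limma 3.58.1 (limma-trend), thinning to equal depth, each line alone, and leaving out each library. On simulated counts for 6832 genes, the model recovered 82.9% of genes changed by 1.5 (log2) in LNCaP (4.19% false calls). In 22Rv1 it recovered 81.2% (6.06% false calls). Among the tested genes chosen by name, the largest estimate with the inhibitor in either line was smaller, at 0.70 (CDKN1B in 22Rv1). Changes of that size or below were not simulated, so these shares do not tell how often they would be found.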

Additional observations from a re-analysis of the deposited data

Results flagged for a closer look

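The treated and control libraries of TK1 separated in opposite directions in LNCaP and 22Rv1, although its change passed the test in LNCaP only (edgeR adjusted p = 0.0335, against 0.391 for 0.24 ± 0.15 in 22Rv1). Its treated libraries had 201 to 220 CPM in LNCaP, all below the controls (289 to 317 CPM), and 270 to 276 CPM in 22Rv1, all above the controls (208 to 255 CPM). Such separation, in either direction, was seen for 19.4% of all tested genes in LNCaP and 23.0% in 22Rv1. The log2 fold changes differed by -0.77 (LNCaP minus 22Rv1), and edgeR's test of that difference did not pass (adjusted p = 0.0693). Only the 10 genes and the named list genes were searched for opposite separation, and its share over all genes was not determined. TK1 was not alone in it. MCM5, another listed E2F target, had 39.0 to 52.8 CPM in treated LNCaP libraries against 57.6 to 66.2 in controls. In 22Rv1 it had 113 to 125.5 CPM against 97.8 to 101.1.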

How the results depend on the processing

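Depth and replicate number limit these results. RB1, CCNE1 and CDK6 rested on few counts, 22Rv1 treated libraries were shallower than the controls, and PC3 had no replicates. Of 1304 values for single genes under an alternative, 1202 kept direction and call, 59 lost a call, 8 gained one and 35 changed sign. Genes called in LNCaP (196) numbered 90 with DESeq2, 41 with limma-trend and 119 at equal depth. In 22Rv1 (404) they numbered 260 without the filter, 229 with DESeq2, 201 with limma-trend and 268 at equal depth. For the average (426) DESeq2 gave 274 and limma-trend 232. For the difference (52) DESeq2 gave 18, limma-trend 5 and equal depth 22, and for the controls (3473) equal depth gave 2049. Library totals changed the split of calls from 141 higher and 55 lower to 99 and 90 in LNCaP, from 294 and 110 to 144 and 231 in 22Rv1, from 275 and 151 to 148 and 359 for the average, from 19 and 33 to 19 and 22 for the difference, and from 1701 and 1772 to 1211 and 2362 for the controls.

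With library totals 1 of the 8 genes, CCND1, was called in 22Rv1 and 1, also CCND1, for the average. The replicate block called 1 gene, CDKN1B, in 22Rv1 (0.69, edgeR adjusted p = 0.0294). The labels share only a number across arms. Correlations of same-numbered libraries ran from -0.0479 to 0.115, and not every library correlated best with its own number, so the block is not read as pairing.

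Leaving out single libraries gave 87 to 239 genes in LNCaP, 158 to 446 in 22Rv1, 276 to 456 for the average and 24 to 57 for the difference, with 0 to 1 of the 8 genes called in 22Rv1 and 0 to 1 for the average. In LNCaP the count moved most without DMSO replicate 2 (121) or 3 (88) or SEL120-34A replicate 1 (89) or 2 (87). In 22Rv1 it did so without DMSO replicate 2 (268) or 3 (229) or SEL120-34A replicate 1 (217) or 2 (158), the last also giving 276 for the average. The difference gave 24 and 27 without LNCaP SEL120-34A replicates 1 and 2, and 34, 32 and 26 without 22Rv1 DMSO replicate 3 and SEL120-34A replicates 1 and 2. The sign also turned for estimates close to 0, for which the cause was not tested. With single libraries left out, CDK2 ran from -0.29 to 0.0050, CDKN1B from -0.38 to 0.72 and RB1 from -0.57 to 0.80 in LNCaP. In 22Rv1 CDK4 ran from -0.12 to 0.16 and E2F1 from -0.22 to 0.10, and the average of RB1 ran from -0.58 to 0.10. The difference ran from -0.13 to 0.069 for CCND1, -0.14 to 0.079 for CCND3, -1.06 to 0.041 for CDKN1B and -0.22 to 0.25 for CDKN2A. At equal depth CCND1 was at 0.050 in LNCaP and 0.34 for the difference. CDK4 in 22Rv1 was at -0.12 on library totals, -0.033 without the filter, -0.027 at equal depth and -0.0064 with the line alone. On library totals the difference was 0.0084 for CCND1, 0.022 for CCND3 and 0.019 for CDKN2A (0.042 with limma-trend), and CDKN2A in the controls was at -0.031.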
